A study of Mus musculus with 37 samples.

Results

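Penk encodes preproenkephalin, the precursor protein from which the opioid peptides Met-enkephalin and Leu-enkephalin are cut. It was followed here through RNA sequencing of mature luminal cells that had been sorted from mouse mammary glands. Penk was 1 gene of the 52636 in the deposited count tables, found by matching its symbol to the Ensembl identifier ENSMUSG00000045573. It had at least 3 counts in each of the 37 libraries. It was chosen by its measured levels (CPM) across the genotypes and pellets of these same libraries, so its levels and differences are described with no test.

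All mice were raised to 8 weeks, ovariectomized, and carried a pellet for 8 days, so the placebo animals lacked ovaries too. The labels name 3 genotypes of Esr1, the gene of estrogen receptor alpha: D542G, Y541S and WT. Each genotype was given E2 (estradiol), P4 (progesterone), both hormones together (E2+P4) or placebo, which makes 12 groups of 3 libraries each, apart from WT P4 with 4. The sources used here do not say whether a mutant allele was present in 1 or both copies, what drove it, or whether a library came from 1 animal or a pool. The series' text calls the samples biological replicates, and the p-values below reflect the spread among them.

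Enkephalins act on delta and mu opioid receptors, G protein-coupled receptors that lower cyclic AMP, and the gene is best known from pain circuits of the nervous system. The precursor is cut at pairs of basic residues in the secretory pathway, the peptides are trimmed and released, and peptidases at the cell surface end their action. Penk is also transcribed outside neurons, in endocrine, immune and mesenchymal cells, and in rat hypothalamus estradiol is known to raise its mRNA. An enhancer near its start site responds to cyclic AMP and is bound by proteins of the CREB, ATF, FOS and JUN families.

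In GRCm38 the gene lies on the minus strand at chr4:4133531-4138819. Its transcript Penk-201 has 2 exons and 268 codons before the stop. The second exon holds 7 enkephalin copies, 6 of Met-enkephalin and 1 of Leu-enkephalin, and these are shown because they are what makes this RNA an opioid precursor. Each line gives the coding strand, 5′ to 3′, read from the GENCODE M21 transcript. The 15 bases in capitals code for the peptide, and the 6 bases on each side hold the flanking codon pair.
Met-enkephalin copy 1: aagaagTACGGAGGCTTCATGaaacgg
Met-enkephalin copy 2: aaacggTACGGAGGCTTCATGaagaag
Met-enkephalin copy 3: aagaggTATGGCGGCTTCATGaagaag
Met-enkephalin copy 4: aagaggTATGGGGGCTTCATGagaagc
Met-enkephalin copy 5: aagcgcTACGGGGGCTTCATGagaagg
Leu-enkephalin copy 6: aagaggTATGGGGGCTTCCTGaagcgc
Met-enkephalin copy 7: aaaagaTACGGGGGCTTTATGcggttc
Copy 1 lies at chr4:4134328-4134354 and copy 7 at chr4:4133842-4133868, and the flanks of copies 1 and 2 overlap. All 7 copies follow a pair of codons for basic residues, the signal for the processing enzymes described further on, and 5 are also followed by such a pair. The 7 copies use 6 distinct coding runs, copies 1 and 2 being written with the same codons. Counts were made per gene, so no value here separates these copies.

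The libraries held 25.69 to 52.24 M counts, with a median of 41.26 M. Levels are given as CPM, counts per 1000000 counts of the library after TMM correction (trimmed mean of M values, for differences in RNA makeup). Krt18, a keratin of luminal cells, was the highest of the 10 hormone-sensing luminal markers in every group, and all 10 were detected in every group. Esr1 RNA had 55.1 to 199 CPM in the placebo libraries of the mutants and 579 to 831 CPM in those of WT, and counts per gene do not show the mutations themselves. Over all tested genes, the root mean square log2 distance of a library from the rest of its group ran from 0.66 to 1.31, and was highest for D542G P4 2 (1.31), WT E2 2 (1.29) and D542G E2 3 (1.24). WT placebo 2, WT P4 2 and Y541S placebo 5, at 1.18, 1.04 and 1.20, were the farthest of their own groups but not of all libraries. Leaving out those 3 together, a choice made after seeing the data, moved each of the 23 Penk differences below by less than the spread between replicates. Differences that involve none of WT placebo, WT P4 and Y541S placebo lost no library in this. Each of the 37 libraries was also left out singly.

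Penk spanned 0.0961 to 2539 CPM, or 3 to 107320 counts, and 94.8% of the variance of its log2 CPM lay between the 12 groups. It was above 10 CPM in 27 libraries and below that in 10. The 10 were all of the D542G placebo, WT placebo and WT P4 libraries. In bulk libraries, fewer Penk-positive cells and less Penk RNA per cell cannot be told apart. Differences are fitted log2 values ± SE over all genes and libraries, and the hormone differences of a genotype share its placebo libraries.

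**Figure D1:**
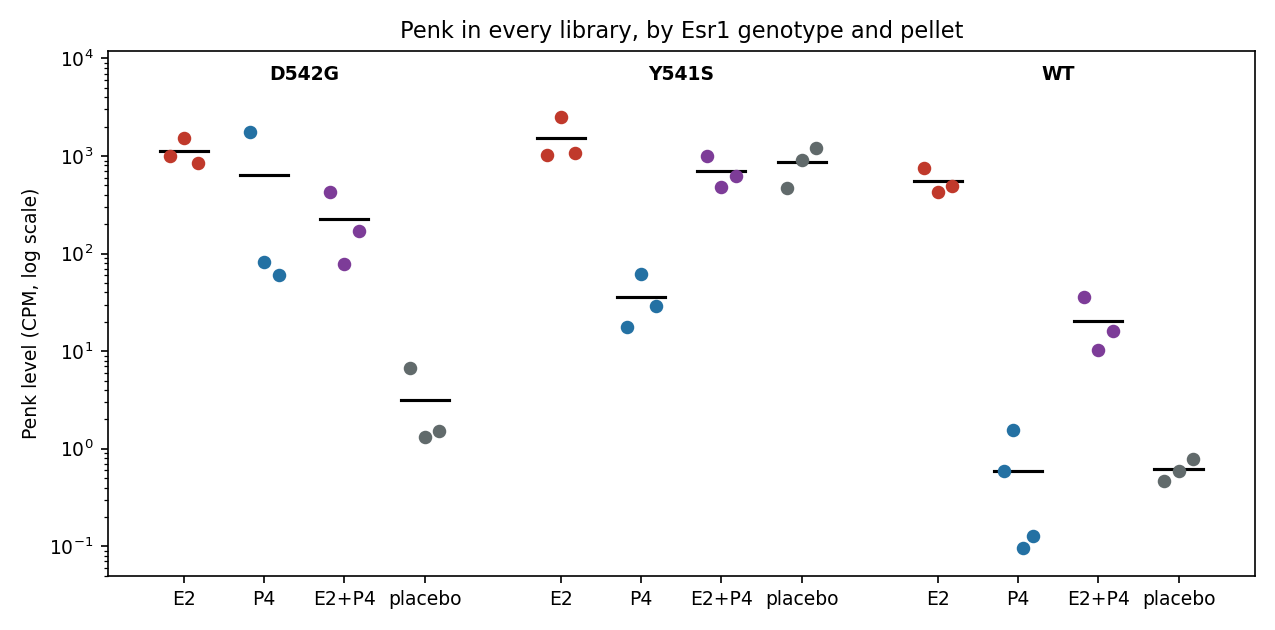
Penk level in each of the 37 libraries (points, CPM on a log axis) by Esr1 genotype and pellet, with the arithmetic mean of each group as a line. D542G placebo, WT placebo and WT P4 libraries lie below 10 CPM, the Y541S placebo libraries lie at 467 to 1222 CPM, and 1 D542G P4 library lies far above the rest of its group.

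E2 pellets went with high Penk in every genotype, and in Y541S cells the level was already high without them. D542G E2 libraries had 1009, 1532 and 849 CPM, against 6.72, 1.32 and 1.51 CPM in D542G placebo libraries. WT E2 libraries had 746, 431 and 489 CPM, against 0.47, 0.587 and 0.786 CPM in WT placebo libraries. In both genotypes every E2 library was far above every placebo library, by 8.47 ± 1.19 in D542G cells and by 9.82 ± 1.30 in WT cells on the log2 scale, a 902-fold difference in the WT case. The D542G difference was 9.64 without D542G placebo 1. Y541S E2 libraries had 1033, 2539 and 1069.7 CPM, against 467, 919 and 1222 CPM in Y541S placebo libraries. These Y541S groups overlapped, 1 E2 library being above all placebo libraries, and the fitted difference was 0.83 ± 0.86.

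With P4 pellets, Penk was above the placebo level in D542G cells, below it in Y541S cells and overlapped with it in WT cells. D542G P4 libraries had 1770.4, 81.3 and 60.7 CPM, against the 6.72, 1.32 and 1.51 CPM of D542G placebo, with no overlap and a log2 difference of 7.65 ± 1.15. The first of the 3 was 29.2 times the lowest of its group, and without it the difference was 4.48, while without D542G placebo 1 it was 8.81. Y541S P4 libraries had 17.5, 61.3 and 29.1 CPM, all below the 467, 919 and 1222 CPM of Y541S placebo libraries, a log2 difference of -4.59 ± 0.99 or 24.2-fold lower, and -5.22 without Y541S P4 2. In WT P4 libraries Penk had 26, 58, 3 and 4 counts, which is 0.598, 1.57, 0.0961 and 0.127 CPM, against 0.47, 0.587 and 0.786 CPM in WT placebo. These WT groups overlapped and the log2 difference was 0.01 ± 1.12, or -1.03 without WT P4 3. The 2 lowest WT P4 libraries had exact Poisson 95% intervals of 0.0198 to 0.281 and 0.0347 to 0.326 CPM, which cover counting error only. They are also the 2 WT P4 libraries whose sample identifiers belong to a later number series.

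With both hormones, Penk lay between the E2 and the placebo level in D542G and WT cells and near the placebo level in Y541S cells. D542G E2+P4 libraries had 432, 78.1 and 172 CPM, above all 3 D542G placebo libraries by 6.16 ± 1.08 on the log2 scale. WT E2+P4 libraries had 35.6, 10.2 and 16 CPM, above all WT placebo libraries by 5.07 ± 1.10. Y541S E2+P4 libraries had 995, 484 and 627 CPM, inside the range of the Y541S placebo libraries, with a difference of -0.31 ± 0.86. The D542G difference was 5.29 without D542G E2+P4 1 and 7.32 without D542G placebo 1, and the WT difference was 4.42 without WT E2+P4 1.

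Set against E2 alone, every E2+P4 library of a genotype was below every E2 library of that genotype. D542G E2+P4 averaged 227 ± 183 CPM and D542G E2 averaged 1130.1 ± 357 CPM (SD, n = 3 each), a difference of -2.31 ± 0.90. In Y541S cells the means were 702 ± 264 CPM with E2+P4 and 1547 ± 859 CPM with E2 (SD, n = 3 each), a difference of -1.14 ± 0.87. WT E2+P4 averaged 20.6 ± 13.3 CPM and WT E2 averaged 555 ± 168 CPM (SD, n = 3 each), which at -4.75 ± 1.0 was the largest of the 3 fitted gaps. Without the first E2+P4 library of their genotype these differences were -3.18 in D542G cells and -5.40 in WT cells, and the Y541S difference was -0.58 without Y541S E2 2.

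Set against P4 alone, the combination differed in sign between the genotypes, and in D542G cells the sign hung on 1 library. Y541S E2+P4 libraries were all above the Y541S P4 libraries, by 4.29 ± 0.98, and WT E2+P4 libraries were all above the WT P4 libraries, by 5.05 ± 0.98. The D542G E2+P4 libraries overlapped with those of D542G P4, at -1.49 ± 0.87. Without the D542G P4 library at 1770.4 CPM this difference was 1.68, and without D542G E2+P4 1 it was -2.35. The Y541S difference was 4.91 without Y541S P4 2, and the WT difference was 4.4 without WT E2+P4 1 and 6.10 without WT P4 3. These 3 comparisons were added after the levels had been seen.

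**Figure D2:**
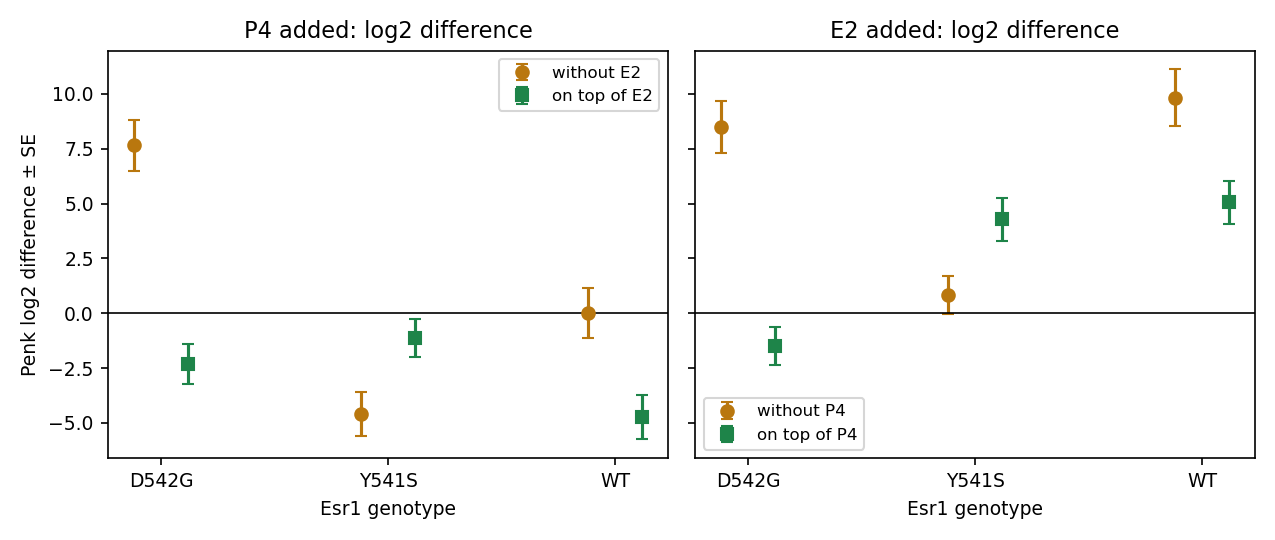
Fitted Penk differences (log2, ± SE) in each Esr1 genotype for P4, left, without E2 (against placebo, circles) and on top of E2 (against E2, squares), and for E2, right, without P4 (against placebo) and on top of P4 (against P4). P4 differed by 7.65 in D542G cells and by -4.59 in Y541S cells when given without E2, and all 3 values on top of E2 are below 0.

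Between genotypes under the same pellet, Penk was higher in the mutants, and the fitted gap to WT was smallest under E2 in both mutants. Y541S placebo averaged 869 ± 380.0 CPM and WT placebo 0.614 ± 0.16 CPM (SD, n = 3 each), a log2 difference of 10.46 ± 1.32. D542G placebo averaged 3.19 ± 3.07 CPM (SD, n = 3), above all WT placebo libraries by 2.37 ± 1.07, and this was 1.21 without D542G placebo 1. Under P4, D542G exceeded WT by a fitted 1026-fold, or by 6.84 on the log2 scale without its highest library, and Y541S exceeded WT by 5.86 ± 1.0, while the libraries of the mutants overlapped with each other. Under E2 the mutants were closer to WT, with 1.03 ± 0.86 in D542G cells and 1.48 ± 0.87 in Y541S cells. Under E2+P4 the differences from WT were 3.46 ± 0.95 in D542G cells and 5.09 ± 1.02 in Y541S cells. In each of these comparisons every mutant library was above every WT library. Without WT P4 3 the P4 differences were 11.05 in D542G cells and 6.90 in Y541S cells, and the Y541S one was 5.23 without Y541S P4 2. Under E2+P4 they were 4.11 and 5.74 without WT E2+P4 1, and the D542G one was 2.60 without D542G E2+P4 1.

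Ordered by their medians, the 12 groups ran from Y541S E2 at 1069.7 CPM through D542G E2 at 1009, Y541S placebo at 919, Y541S E2+P4 at 627 and WT E2 at 489 CPM. D542G E2+P4 at 172, D542G P4 at 81.3, Y541S P4 at 29.1 and WT E2+P4 at 16 CPM followed. D542G placebo at 1.51, WT placebo at 0.587 and WT P4 at 0.363 CPM came last. The ranges of neighbouring groups overlapped all along this order except at 2 steps, between WT E2+P4 and D542G placebo and between D542G placebo and WT placebo. Between-replicate spread also differed: the highest library was 1.67 times the lowest in WT placebo, 1.73 times in WT E2, 16.3 times in WT P4 and 29.2 times in D542G P4.

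A gene of the other strand, A830012C17Rik at chr4:4138321-4188703, shares 157 bases of exon 1 of Penk-201 with an exon of its own. Its counts were 5.14% to 7.19% of those of Penk in the 27 libraries above 10 CPM, and 0 to 30 counts in the other 10. Its log2 differences were 8.71 ± 1.25 for WT E2 against WT placebo and 9.38 ± 1.26 for Y541S placebo against WT placebo, beside 9.82 and 10.46 for Penk. Since use of strand in the counting is not given in the sources used here, reads of the pair cannot be told apart.

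Markers of other cell types differed between some of the groups that also differed in Penk, and their part in the Penk levels was not tested. All 10 fibroblast markers were detected in every group. Their summed level was 4407, 4583 and 744 CPM in Y541S placebo libraries, against 104, 325 and 51.2 CPM in WT placebo libraries. Most of it was 1 gene, Dcn, with 2748 of the mean sum of 3245 CPM in Y541S placebo. In WT placebo Dcn had 123 of 160.0 CPM, and in D542G placebo 582 of 724 CPM. The Y541S placebo library with the lowest fibroblast sum had the highest Penk level of the 3, 1222 CPM, and the other 2 had 467 and 919 CPM. That library, Y541S placebo 5, is the only library of its group from the later identifier series. It also had the fewest counts of all libraries, 25.69 M. In WT E2 libraries the fibroblast sum was 114 to 166 CPM, within the 51.2 to 325 CPM of WT placebo libraries, while Penk did not overlap. D542G placebo libraries had 428 to 1086 CPM of fibroblast markers with 1.32 to 6.72 CPM of Penk. The WT P4 libraries kept the same order in both. Fibroblast sums of 63, 91.4, 308 and 415 CPM there went with 0.0961, 0.127, 0.598 and 1.57 CPM of Penk.

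The other lists gave the following sums beside the same Penk groups. Luminal progenitor and alveolar markers summed to 14019 to 44762 CPM in WT E2 libraries and to 3688 to 4344 CPM in WT placebo libraries, with 9 of 10 detected and Csn3 at 0 in every library. The 11 leukocyte markers, all detected in both groups, summed to 28.3 to 139 CPM in WT E2 libraries and to 3.14 to 5.64 CPM in WT placebo libraries. In Y541S placebo libraries the progenitor and alveolar sum was 3398 to 8417 CPM and the leukocyte sum 20.5 to 55 CPM. Basal and adipocyte sums reached at most 622 and 3.1 CPM in any library.

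In WT E2+P4 libraries the 7 endothelial markers, all detected, summed to 301 to 479.7 CPM, against 40.3 to 49 CPM in WT placebo libraries, and the progenitor and alveolar sum was 4397 to 8560.4 CPM, above the same placebo libraries. D542G P4 and D542G E2+P4 libraries had progenitor and alveolar sums of 4373 to 14520.3 and 4772 to 9822 CPM, against 1741 to 3302 CPM in D542G placebo libraries. Their endothelial sums were 241 to 276 and 303 to 318 CPM, against 140.4 to 212 CPM in D542G placebo. Vwf alone averaged 189 and 258 CPM there, against 152 CPM in D542G placebo. Leukocyte sums were 10.4 to 100.1 CPM in D542G E2, 13.1 to 96.2 CPM in D542G P4 and 32.1 to 62.1 CPM in D542G E2+P4 libraries, against 8.59 to 9.69 CPM in D542G placebo. The hormone-sensing sum was 14869 to 15914 CPM in D542G E2, 7512 to 9673 CPM in D542G P4 and 6338 to 7373 CPM in D542G E2+P4 libraries, against 10883 to 12860.2 CPM in D542G placebo. More of it came from Krt18 than from any other marker, with means of 9957, 4886 and 3888 CPM, against 6725 CPM in D542G placebo. None of these ranges of summed levels overlapped with placebo. Nor did the leukocyte and endothelial sums of WT P4 libraries, 6.85 to 52.3 and 73.4 to 169 CPM, where Penk did overlap with placebo. In Y541S P4 libraries, where Penk was lower, the progenitor and alveolar sum was 2936 to 3235 CPM, against 3398 to 8417 CPM in Y541S placebo. The hormone-sensing sum there was 7355 to 8774 CPM, against 8969 to 10509 CPM, with Krt18 at means of 5094 and 6049.5 CPM. This sum was also lower in Y541S E2 (6138 to 8438 CPM) and Y541S E2+P4 libraries (6659 to 8022 CPM), where Penk overlapped with placebo. Fibroblast sums were 104 to 409 CPM in D542G P4, against 428 to 1086 CPM in D542G placebo. They were 381 to 525 CPM in Y541S E2 and 296 to 717 CPM in Y541S E2+P4, below the 744 to 4583 CPM of Y541S placebo. Penk overlapped with placebo in both. In Y541S P4 the fibroblast sums were 621 to 807 CPM and overlapped with placebo, while Penk did not. Leukocyte sums were 12.3 to 79.3 CPM in WT E2+P4, against 3.14 to 5.64 CPM in WT placebo.

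**Figure D3:**
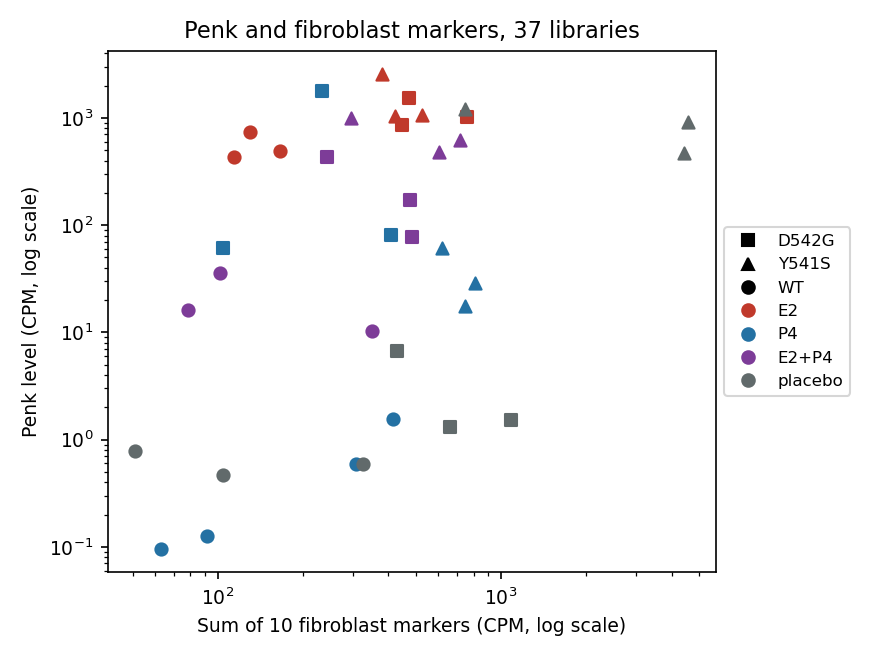
Penk level against the summed level of 10 fibroblast markers in each of the 37 libraries (CPM, both axes logarithmic), with genotype as the marker's shape and pellet as its colour. The 2 libraries at 4407 and 4583 CPM of fibroblast markers are Y541S placebo, and the WT E2 libraries are high in Penk at 114 to 166 CPM of fibroblast markers. Dcn was the highest of the 10 markers in Y541S placebo, with a mean of 2748 CPM.

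Genes that make, read or remove enkephalins were then examined in the same fit, as 57 genes in 6 lists of which 51 passed the filter on low counts. A gene was called when its edgeR quasi-likelihood p, adjusted by Benjamini-Hochberg over all 18426 tested genes, was below 0.05. In D542G cells, E2 against placebo called 9 of the 51 higher and 6 lower, where 8.36% of all tested genes were called higher and 7.34% lower. P4 called 8 higher and 4 lower there, against 9.49% and 8.88% of all genes. E2+P4 called 8 higher and 7 lower, against 13% and 12.4%.

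In Y541S cells, E2 called 3 higher and 4 lower, where 1.87% of all genes were called higher and 2.78% lower. P4 called 2 higher and 8 lower, against 5.14% and 6.13%, and E2+P4 called 3 higher and 16 lower, against 8.43% and 10.1%. The median log2 difference of the list genes in Y541S cells was -0.27 with E2, -0.40 with P4 and -0.52 with E2+P4, beside -0.01, -0.02 and -0.04 over all genes.

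In WT cells, E2 called 13 higher and 11 lower, where 15.6% of all genes were called higher and 15.9% lower. P4 called 1 in each direction, against 0.923% and 0.505%, and E2+P4 called 8 higher and 9 lower, against 11.8% and 11.5%. Between placebo groups, D542G against WT called 0 higher and 1 lower, Junb, with 1.24% and 0.782% of all genes called. The Junb call was lost on leaving out any 1 of the 6 libraries, with adjusted p up to 0.223. There DESeq2 called 3 of the 51, and 7 had an unadjusted edgeR p below 0.05. Y541S against WT called 7 higher and 6 lower, with 7.18% and 6.22%.

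The other opioid precursors were at the limit of detection. Pdyn (dynorphins) had 5 counts and Pnoc (nociceptin) 52 counts over all 37 libraries, and both were left out of the test. Pomc, the precursor of beta-endorphin and ACTH, passed the filter with group means of 0.143 to 0.977 CPM and was called in none of the 11 comparisons. Among these precursors, Penk alone passed 10 CPM in any group.

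Of the receptors, those that carry the classical opioid signal were hardly detected. Oprd1, the delta receptor and main enkephalin receptor, reached a group mean of at most 0.285 CPM, in D542G placebo. Oprm1 and Oprk1, the mu and kappa receptors, had 25 and 19 counts over all libraries and were not tested, and Oprl1, the nociceptin receptor, reached at most 0.228 CPM. Neither Oprd1 nor Oprl1 was called in any comparison. At this depth, reads of Oprm1 could also come from 2 genes that overlap 55.7% of its span.

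Ogfr and Ackr3, which bind enkephalins outside the classical family, were expressed and changed in some comparisons. Ackr3, an atypical chemokine receptor that takes up opioid peptides, had 16.5, 25.1 and 33.8 CPM in WT E2 libraries and 6.92, 10 and 7.13 CPM in WT placebo libraries. That rise was 1.65 ± 0.35 (log2, adjusted p = 5.90e-04). In Y541S cells Ackr3 rose with E2 by 1.94 ± 0.35 (adjusted p = 0.00147) and fell with E2+P4, to 4.1, 3.48 and 1.44 CPM against 6.66, 10.6 and 12.6 CPM in Y541S placebo (-1.73 ± 0.35, adjusted p = 9.33e-04). Ogfr, the receptor of Met-enkephalin as an opioid growth factor, rose in 4 comparisons by 0.49 to 0.87, the most in Y541S E2 libraries with 171, 118 and 139 CPM against 74, 64.9 and 95.3 CPM in Y541S placebo libraries (adjusted p = 6.74e-04). Of the 4, the D542G P4 call was lost without D542G placebo 1 or 3 or D542G P4 1.

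All 13 genes of precursor processing were tested. E2 called 4 higher in D542G cells, where 8.36% of all tested genes were called higher and 7.34% lower. It called 1 in each direction in Y541S cells (1.87% and 2.78% of all genes). In WT cells it called 3 higher and 1 lower (15.6% and 15.9%). P4 called 2 higher and 1 lower in D542G cells (9.49% and 8.88%), and E2+P4 the same numbers (13% and 12.4%). E2+P4 called 3 higher in WT cells (11.8% and 11.5%). In Y541S cells P4 called 1 higher and 5 lower (5.14% and 6.13%), and E2+P4 called 2 higher and 5 lower (8.43% and 10.1%). Of the lower calls with P4, those of Furin, Cpe and Pcsk6 were lost without Y541S placebo 5. Pcsk1, the convertase best known for cutting proenkephalin in granules, was low, and was called once. It had 14.1, 19.1 and 7.94 CPM in D542G E2 libraries and 1.16, 0.931 and 0.704 CPM in D542G placebo libraries, a rise of 3.88 ± 1.17 (adjusted p = 0.0231). That call was lost on leaving out 4 of the 6 libraries in turn, with adjusted p up to 0.0842. Pcsk2, the other granule convertase, stayed at group means of 0.149 to 1.49 CPM and was not called in any comparison.

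Furin, a convertase of the general secretory pathway, rose in D542G cells with E2 and fell in Y541S cells with P4. It had 604, 989.8 and 998 CPM in D542G E2 libraries, against 109, 81.8 and 139.8 CPM in D542G placebo libraries (2.97 ± 0.42, adjusted p = 1.23e-05). In Y541S P4 libraries it had 75.5, 60.9 and 57.2 CPM, against 126, 146 and 389.7 CPM in Y541S placebo libraries (-1.77 ± 0.40, adjusted p = 0.00428). With E2+P4 it rose in WT cells, to 381, 846 and 1087 CPM against 207, 140.5 and 188 CPM in WT placebo (2.11 ± 0.41, adjusted p = 2.97e-04). The Y541S P4 call was lost without Y541S placebo 5, where Furin was highest, and adjusted p ran from 1.15e-04 to 0.0821 over the alternatives.

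Cpe, the carboxypeptidase that removes the basic residues left on the peptides, had its highest group mean in WT E2 libraries. It had 45.9, 143 and 103 CPM there, against 8.88, 15.2 and 13.2 CPM in WT placebo libraries (2.97 ± 0.58, adjusted p = 2.39e-04). With P4 it rose in D542G cells, to 39.2, 113 and 37.5 CPM against 12.9, 12.7 and 8.66 CPM in D542G placebo (2.47 ± 0.57, adjusted p = 0.00324). In Y541S P4 libraries it was lower, at 12.5, 7.2 and 9.39 CPM against 32.2, 26.9 and 61.3 CPM in Y541S placebo (-2.05 ± 0.56, adjusted p = 0.016). The Y541S call was lost under 6 of 12 alternatives, with adjusted p from 0.00143 to 0.109. Penk differed with P4 in the same directions in these genotypes, by 7.65 and -4.59, and both genes were higher with E2 in WT cells. The 2 genes parted elsewhere. With E2 in D542G cells Cpe differed by 0.39 ± 0.54 with no call, and Penk by 8.47. With E2+P4 in Y541S cells Cpe was called lower (-1.89 ± 0.56, adjusted p = 0.0173), and Penk differed by -0.31. That Cpe call was lost under 7 of 12 alternatives.

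Ctsl, the protease cathepsin L that can cut proenkephalin in granules, rose with E2 and with E2+P4 in WT cells and fell with P4 in Y541S cells. Its levels were 359, 545 and 564 CPM in WT E2 libraries and 208, 174 and 181 CPM in WT placebo libraries (1.38 ± 0.25, adjusted p = 9.40e-05). In Y541S P4 libraries it had 69.8, 75.4 and 67.6 CPM, against 179.8, 206 and 276 CPM in Y541S placebo libraries (-1.64 ± 0.25, adjusted p = 8.78e-05). Pam, which amidates peptide ends, fell in 5 comparisons of the mutants with log2 differences of -1.09 to -1.65 and was not called in the 3 hormone comparisons of WT cells. The Pam call with E2 in Y541S cells was lost without Y541S placebo 2 or Y541S E2 1. Pcsk1n, the precursor of an inhibitor of the Pcsk1 enzyme, was called higher in 2 comparisons of Y541S cells at group means of at most 1.13 CPM, and both calls were lost without Y541S placebo 2 or 3.

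The 8 genes of enkephalin breakdown were all tested. With E2, 4 were called higher in D542G cells, where 8.36% of all tested genes were called higher and 7.34% lower. In Y541S cells E2 called 2 lower (1.87% of all genes higher, 2.78% lower), and in WT cells 5 higher and 1 lower (15.6% and 15.9%). In Y541S placebo against WT placebo 4 were called higher (7.18% and 6.22%). With P4 (5.14% and 6.13%) and with E2+P4 (8.43% and 10.1%) in Y541S cells 2 were called lower and 1 higher each. In D542G cells P4 called 2 higher (9.49% and 8.88%), and E2+P4 called 4 higher and 2 lower (13% and 12.4%). In WT cells E2+P4 called 4 higher and 1 lower (11.8% and 11.5%). Mme, the membrane enzyme neprilysin or enkephalinase, had 189, 331 and 223 CPM in WT E2 libraries and 25.6, 13.8 and 17.4 CPM in WT placebo libraries, a rise of 3.71 ± 0.61 (adjusted p = 3.40e-05). It also rose with E2+P4 in WT cells and with P4 and E2+P4 in D542G cells, by 2.11 to 2.75. In D542G E2 libraries Mme had 6.29, 4.14 and 19.8 CPM, against 15.1, 19.2 and 5.99 CPM in D542G placebo libraries, and the groups overlapped with no call while Penk did not overlap.

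Anpep, aminopeptidase N, which takes the first residue off enkephalins at the cell surface, moved in opposite directions. It had 83.6, 109.8 and 138 CPM in D542G E2 libraries, against 28.8, 45.6 and 25 CPM in D542G placebo libraries (1.74 ± 0.35, adjusted p = 8.06e-04). In Y541S P4 libraries it had 14.3, 14.8 and 13.7 CPM, against 59.5, 55.4 and 135 CPM in Y541S placebo libraries (-2.54 ± 0.36, adjusted p = 4.19e-05). Both calls were kept under every alternative. Npepps, the puromycin-sensitive aminopeptidase, rose in 6 comparisons, of which the 3 in D542G cells were not kept throughout. Its D542G E2+P4 call (0.66, adjusted p = 0.0454) was lost under 7 of 12 alternatives, 5 of them 1 library left out. The D542G E2 call was lost without D542G placebo 1 or D542G E2 1, and the D542G P4 call without D542G placebo 1 or D542G P4 2. In Y541S placebo libraries it had 57.9, 49 and 81.2 CPM, against 26.2, 23.6 and 20.4 CPM in WT placebo libraries (1.42 ± 0.25, adjusted p = 1.85e-04).

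Ace, angiotensin-converting enzyme, which can also cut enkephalins, was called in 5 comparisons, 4 lower and 1 higher, of which WT E2+P4 was lost without WT E2+P4 1 and D542G E2+P4 without D542G placebo 1 or 2 or D542G E2+P4 1 or 2. In Y541S P4 libraries it had 88, 94.3 and 108 CPM, against 9.55, 11.5 and 9.89 CPM in Y541S placebo libraries (3.23 ± 0.52, adjusted p = 1.41e-04). With E2 it fell in Y541S cells, to 1.05, 2.01 and 0.736 CPM (-3.03 ± 0.53, adjusted p = 9.59e-04). A predicted gene, Gm11651, overlaps 80.6% of the span of Ace, so its counts may be shared. The same holds for Ece2 and Gm49333 over 96.6% of the span.

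Of the 12 genes of dense-core secretory granules, 10 were tested, and every call among them was lower. In WT cells E2 called 2 and E2+P4 called 3, where 15.9% and 11.5% of all tested genes were called lower. In D542G cells E2, P4 and E2+P4 called 2 each (7.34%, 8.88% and 12.4%). In Y541S cells E2 called 1 (2.78%), P4 called 0 (6.13%) and E2+P4 called 2 (10.1%). Y541S placebo against WT placebo called 2 (6.22%). All of these calls fell on Cadps2, Syt7, Rab3d and Rab27a. The classical granule proteins were barely present: Chga reached a group mean of 2.81 CPM, Scg2 0.86 CPM and Scg3 1.37 CPM, with no call, and Chgb and Vgf were too low to test. Cadps2, which primes dense-core vesicles for release, fell in 7 of 11 comparisons. It had 63.5, 50.8 and 63.2 CPM in WT E2+P4 libraries, against 198, 154 and 192 CPM in WT placebo libraries (-1.61 ± 0.19, adjusted p = 2.63e-07). All 7 calls were kept under every alternative. Syt7, a calcium sensor of vesicle release, had 6.43, 2.6 and 7.29 CPM in WT E2 libraries and 21.7, 26.5 and 30.5 CPM in WT placebo libraries (-2.26 ± 0.30, adjusted p = 1.65e-06). Rab3d and Rab27a, small GTPases of granules, were called lower in 4 comparisons and in 1 comparison, and 3 of the 4 and the 1 were lost on leaving out single libraries, with adjusted p up to 0.21 and 0.161.

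All 15 transcription factors known from the Penk enhancer were tested. E2 called 1 higher and 4 lower in D542G cells, where 8.36% of all tested genes were called higher and 7.34% lower. In WT cells it called 3 higher and 7 lower, against 15.6% and 15.9%. In Y541S cells E2 called 0 of the 15 with edgeR and 0 with DESeq2, and 0 had an unadjusted edgeR p below 0.05. Of all genes, 1.87% were called higher and 2.78% lower there. E2+P4 called 6 lower in Y541S cells, against 10.1% of all genes. Y541S placebo against WT placebo called 1 higher and 4 lower, against 7.18% and 6.22%. Atf3, a stress-induced factor that binds cyclic AMP response elements, fell in 8 of 11 comparisons. The call was lost for WT P4 without WT placebo 1 or 3 or WT P4 2 or 3, for D542G P4 without D542G placebo 1 or 2 or D542G P4 1 or 3, and for D542G E2+P4 without D542G placebo 2 or D542G E2+P4 1. Adjusted p then reached 0.14, 0.105 and 0.0659, and the other 5 calls were kept under every alternative. Atf3 had 729.8, 871 and 580.3 CPM in WT E2 libraries, against 5736, 4282 and 5727 CPM in WT placebo libraries (-2.85 ± 0.34, adjusted p = 4.70e-07), where Penk was at 431 to 746 CPM and at 0.47 to 0.786 CPM.

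Fos, the partner of Jun in the AP-1 factor, had 1079, 1374 and 891 CPM in WT E2 libraries and 5892, 5259 and 5960.1 CPM in WT placebo libraries (-2.36 ± 0.46, adjusted p = 2.32e-04). In Y541S E2+P4 libraries Fos had 375, 261 and 464 CPM, against 1627, 1717 and 2180.3 CPM in Y541S placebo libraries (-2.33 ± 0.46, adjusted p = 6.72e-04). Fos and Atf3 are also known to be induced when tissue is dissociated, and the part of dissociation in these levels was not tested. Crem and Fosl1 were called only higher. Fosl1, a FOS relative, had 252, 311 and 479 CPM in WT E2 libraries and 50.3, 86.8 and 48 CPM in WT placebo libraries (2.49 ± 0.40, adjusted p = 2.23e-05). The gene Ccdc85b overlaps 32.9% of the span of Fosl1, so counts of Fosl1 may be shared. Crem, which includes repressors of cyclic AMP response, had 48.7, 141 and 72.1 CPM in WT E2 libraries and 24.2, 27.6 and 23.7 CPM in WT placebo libraries (1.79 ± 0.30, adjusted p = 4.21e-05). Jun, Rela and Tfap2a were not called in any comparison.

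**Figure D4:**
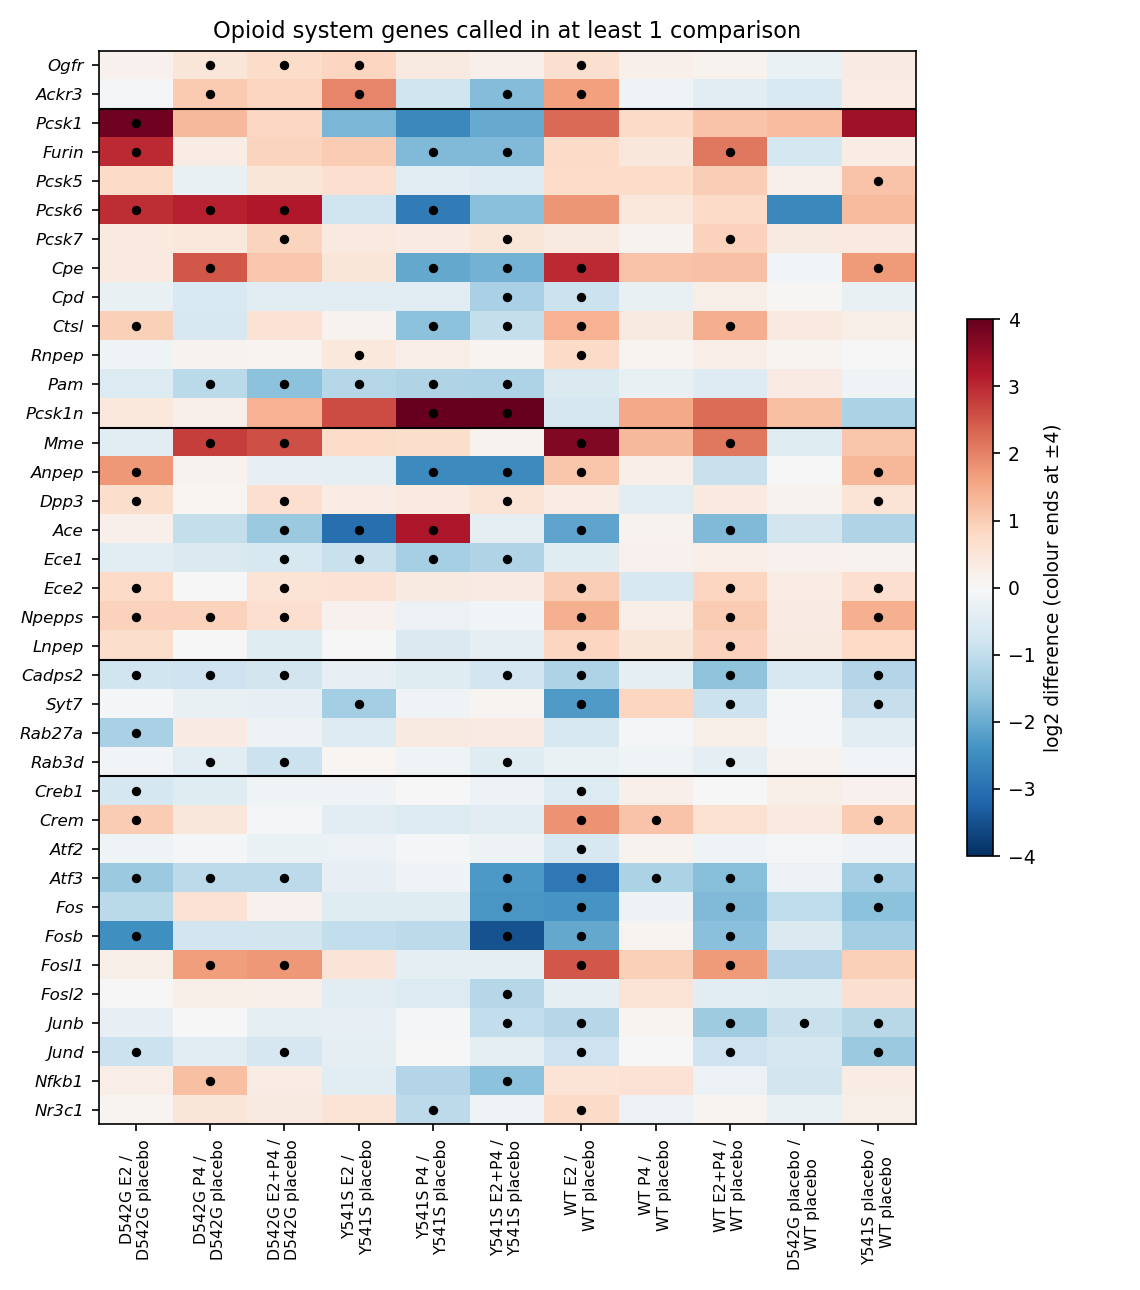
Fitted log2 difference (colour, ending at 4 in either direction) of each opioid system gene called in at least 1 of the 11 comparisons, with a dot where the adjusted p was below 0.05. From top to bottom, black lines part receptors, precursor processing, enkephalin breakdown, secretory granule and transcription factor genes. Dots on granule genes are all on lower values, and Furin, Cpe, Ctsl and Anpep have dots on both higher and lower values.

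Within 500 kb of the start site of Penk lie 8 protein-coding neighbours, all on the side of lower coordinates, from Sdr16c6 at 61.3 kb to Lyn at 460.7 kb, and 6 were tested. With E2 in WT cells, Lyn, Plag1 and Chchd7 were called higher, 3 of the 6 tested, where 15.6% of all genes were called higher and 15.9% lower. Chchd7, a small mitochondrial protein, had 86.8, 165 and 87.9 CPM in WT E2 libraries and 26.5, 52.3 and 34.3 CPM in WT placebo libraries (1.59 ± 0.26, adjusted p = 3.60e-05). Lyn, a SRC family kinase of immune cells also present in epithelium, had 81.2, 79.2 and 64.1 CPM in WT E2 libraries, against 33.7, 33.4 and 47.8 CPM in WT placebo libraries (0.97 ± 0.26, adjusted p = 0.00523). Plag1 stayed below 4 CPM and its call (2.77 ± 1.07, adjusted p = 0.0474) was lost under 8 of 12 alternatives, with adjusted p from 0.0151 to 0.141. With edgeR, 0 neighbours were called for D542G E2, D542G P4 and Y541S placebo against WT placebo, where Penk differed by 8.47, 7.65 and 10.46 and the shares of all genes called higher were 8.36%, 9.49% and 7.18%. DESeq2 called 1, 2 and 1 in these comparisons, and 1 in each had an unadjusted edgeR p below 0.05.

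Genes whose level followed that of Penk were sought by Pearson r over the 12 group means of log2 CPM, among 10024 protein-coding genes with a group mean of at least 10 CPM. The median r was -0.02, and 15 genes had r of 0.9 or more. The 12 points are the same groups for every gene, so r is given as a description with no test. The 10 most like Penk were Fam19a4 (0.95), Npepps (0.94), Csrp2 (0.94), Lgals1 (0.93), Osbpl1a (0.93), Cdk6 (0.92), Ccnb2 (0.92), Slpi (0.92), Hmmr (0.91) and Spink2 (0.91). Npepps is the aminopeptidase of the breakdown list. Cdk6, Ccnb2 and Hmmr act in the cell cycle and its spindle.

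Slpi, a secreted inhibitor of leukocyte proteases, was the only 1 of the 10 that also stood among the 5 genes closest to Penk from library to library within groups. It had 2115, 3783 and 3070.4 CPM in D542G E2 libraries, against 4.23, 3 and 3.18 CPM in D542G placebo libraries. In D542G P4 libraries it had 249.6, 16 and 6.91 CPM, and its highest library there was also the highest in Penk. Over the deviations of 37 libraries from their group means r was 0.78, the highest of all, and 0.59 without that library, below Ankrd52 at 0.72, Ick at 0.64 and Igfals at 0.60. Fam19a4, a secreted chemokine-like protein, was far lower, with 27.3, 8.31 and 11.4 CPM in WT E2 libraries and 0.0522, 0.0255 and 0.0561 CPM in WT placebo libraries.

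Lgals1, a galectin, had 78.4, 116 and 65.2 CPM in WT E2 libraries, against 2.95, 7.84 and 4.29 CPM in WT placebo libraries. In Y541S placebo libraries Lgals1 had 73.4, 58.6 and 87.3 CPM, so that like Penk it was near its WT E2 level without added hormone. The genes most opposite to Penk were Ctnnbl1 (-0.95), Vps11 (-0.95), Csad (-0.93), Il13ra1 (-0.93) and Tmem241 (-0.93). Il13ra1, a chain of the interleukin receptors, had 135, 285 and 238 CPM in WT E2 libraries and 698, 726 and 840.4 CPM in WT placebo libraries. After Slpi, the genes that followed Penk within groups were Ick, Avpi1, Ankrd52 and Igfals, with r of 0.68 to 0.74 over the deviations, and only 1 of these 5 remained among the first 5 without D542G P4 1.

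**Figure D5:**
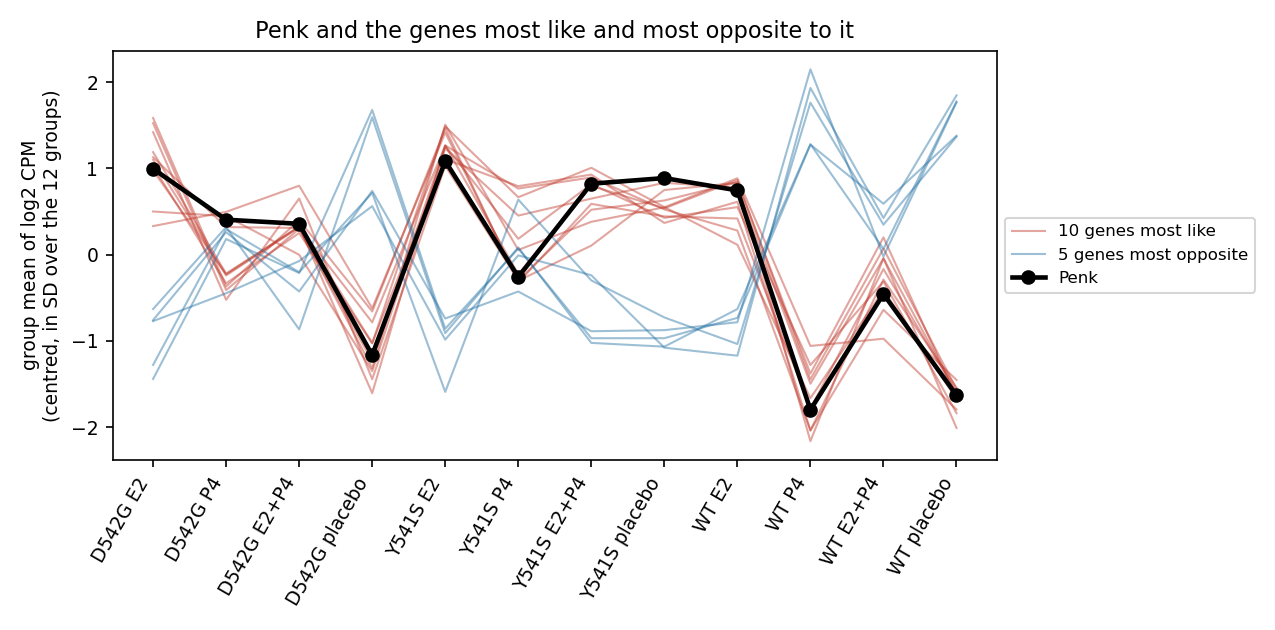
Group means of log2 CPM, centred and in SD over the 12 groups, for Penk (black), the 10 genes most like it (red) and the 5 most opposite (blue). Penk is lowest in D542G placebo, WT P4 and WT placebo, where the 5 opposite genes are highest and most of the 10 are low.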

How the data were processed

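RNA of sorted mammary mature luminal cells was sequenced from cDNA libraries, per the labels. For each of 37 libraries the authors deposited a table of counts per gene, whole numbers used here as they stand, and an RPKM column derived from them that served for no result. The build was GRCm38, per the submitters' processing notes. Which aligner, counter and strand setting were used is not given in the sources used here. Groups came from the sample titles.

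Counts were fitted with edgeR 4.0.16 under R 4.3.3: filterByExpr by group, TMM factors (0.77 to 1.17), 1 coefficient per group and a robust quasi-likelihood fit with 25 residual degrees of freedom. It was tested on simulated data. It kept 18426 genes, of which calls had a Benjamini-Hochberg adjusted p below 0.05 within a comparison, and 11 comparisons were tested. SE is the size of the log2 difference over the square root of F. Penk, the gene lists and the comparisons were chosen with earlier results of these data known. Named are Penk, list members and neighbours with calls, and the likeness genes, ranked on log2 CPM with a prior count of 2. Cell type markers were textbook lists. Alternatives were median-of-ratios factors, no count filter, DESeq2 1.42.0, a replicate block, the first identifier series only, and each library left out. Libraries of a group all differed by more than sampling noise, since a chi-square over genes divided by its degrees of freedom was at least 25.1 in 39 pairs.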

Additional observations from a re-analysis of the deposited data

Results flagged for a closer look

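Penk itself moved in opposite directions under P4 in the mutants: every D542G P4 library was above and every Y541S P4 library below the placebo libraries of its genotype, at log2 differences of 7.65 and -4.59. Cpe did the same with P4, at 2.47 in D542G cells and -2.05 in Y541S cells. With E2+P4, Furin differed by -1.78 in Y541S cells and 2.11 in WT cells, and Ctsl by -0.96 in Y541S cells and 1.45 in WT cells, again with no overlap with placebo. The Y541S calls of Furin and Ctsl were each lost under 1 alternative, the first identifier series (adjusted p = 0.0559) and the replicate block (adjusted p = 0.0513). None of these differences between genotypes was tested. In WT P4 libraries 1 of the 4 Cadps2 values, 111 CPM, lay below the others at 145 to 147 CPM, with a gap of 0.929 of the whole range. Chance flags about 1 in 20 such groups.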

How the results depend on the processing

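All 23 Penk differences kept their size within the spread between replicates under median-of-ratios factors, no low-count filter, DESeq2, the replicate block, the first identifier series only, and, chosen after seeing the data, without WT placebo 2, WT P4 2 and Y541S placebo 5 together. The first identifier series leaves out libraries of WT P4 and Y541S placebo only. Differences between groups with no library left out could hardly move under either of these exclusions. Leaving out 1 library at a time moved 5 of them beyond that spread, and the report gives the values of others that moved by less. Against D542G placebo, D542G E2 ran from 8.10 to 9.64 and D542G P4 from 4.48 to 8.81. D542G placebo against WT placebo ran from 1.21 to 2.75, and D542G P4 against WT P4 from 6.84 to 11.05. D542G E2+P4 against D542G P4 ran from -2.35 to 1.68, with the sign reversed without D542G P4 1. The cause was not tested.

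Counts of called genes depended more on the setting. WT P4 against WT placebo called 263 genes, and 160 with no low-count filter, 79 under the replicate block, 523 without the 3 libraries named above, 744 with DESeq2 and 22 to 384 with 1 library left out. Y541S E2 against Y541S placebo called 857, and 1743 in the first identifier series, 1878 without the 3 libraries, 1426 with DESeq2 and 299 to 1786 with 1 library left out, the highest without Y541S placebo 5. D542G placebo against WT placebo called 372, 678 with DESeq2, and 168 to 261 with 1 library left out. With 1 library left out the count ran from 1817 to 2440 for D542G E2 (2893 with all), from 1723 to 3295 for D542G P4 (3385), from 1167 to 2191 for Y541S P4 (2077), from 2202 to 3657 for Y541S E2+P4 (3417), each against placebo, and from 1487 to 2422 for Y541S placebo against WT placebo (2469).

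Of the opioid system genes, WT P4 called 2, and 1 under the replicate block, 4 with DESeq2 and 0 to 2 with 1 library left out. Y541S E2 called 7, and 12 in the first identifier series, 12 without the 3 libraries and 4 to 12 with 1 left out. D542G placebo against WT placebo called 1, and 2 under the block, 5 in the first series, 3 with DESeq2 and 0 to 1 with 1 left out. Leaving out 1 library gave 9 to 14 for D542G E2 (15 with all), 5 to 11 for D542G P4 (12), 8 to 14 for D542G E2+P4 (15) and 7 to 13 for Y541S placebo against WT placebo (13).

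Of the neighbours, D542G E2 called 0, and 1 with DESeq2. D542G P4 called 0, and 1 with median-of-ratios factors, 1 in the first series, 1 without the 3 libraries, 2 with DESeq2 and 0 to 1 with 1 left out. D542G E2+P4 called 2, and 1 with no filter and 1 to 2 with 1 left out. Y541S P4 called 2, and 1 under median-of-ratios factors, no filter, the block, the first series and without the 3 libraries, and 1 to 2 with 1 left out. Y541S E2+P4 called 2, 1 under the block, and 0 to 2 with 1 left out. Y541S placebo against WT placebo called 0, and 1 under the block, the first series, without the 3 libraries and with DESeq2, and 0 to 1 with 1 left out.

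Of 145 calls of list genes and neighbours, 80 were kept under every alternative, and 1 changed sign, Pcsk6 with P4 in Y541S cells, in the 3 alternatives that leave out Y541S placebo 5. Of the 10 genes most like Penk, 4 stayed among the first 10 by Spearman's rho, 4 over the 37 libraries and 10 with a prior count of 0.5. Replicate numbers did not pair the samples: over 178 same-numbered pairs the correlation of deviations ran from -0.50 to 0.56 with a median of 0.00, and 10 of 37 libraries correlated best with their own number. Calls rest on 3 or 4 libraries a group, and Penk levels below 1 CPM on 3 to 28 counts.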
